A study of Mus musculus with 4 samples.

Results

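H3K36me3, trimethylated lysine 36 of histone H3, marked 3864 short stretches of the autosomes of embryonic mouse forebrain that had no H3K4me3 (trimethylated lysine 4) close by. They made up 37.9% (36.97 to 38.9) of the 10192 autosomal H3K36me3 regions and are called the members hereafter. A member was an H3K36me3 region of 5 to 15 kb with no H3K4me3 region overlapping it or within 5 kb of it. H3K36me3 regions were 5 kb bins with at least 20 ChIP tags and a ratio of ChIP to scaled input of at least 2, and H3K4me3 regions were 1 kb bins with at least 20 ChIP tags and a ratio of at least 4. Bins were merged over gaps of at most 1 bin, each ChIP was set against its own input, and 1 tag was added to both terms of a ratio. The ratios of both marks chose the members, so their values inside the members are descriptions and carry no test.

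H3K36me3 is deposited by SETD2, a methyltransferase that travels with elongating RNA polymerase II, and it is known for covering the bodies of transcribed genes, most densely towards their far ends. H3K4me3 sits at active and poised promoters. A transcribed gene usually has H3K4me3 at its start and H3K36me3 along its body, often many kb apart in a long gene.

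Tissue came from forebrain of CD1 mice, an outbred strain, at embryonic day 11.5. The dissected pieces were pooled, 36 per ChIP library, and fixed in 1% formaldehyde. The 4 groups held 1 library each: an H3K4me3 ChIP (10 microlitres of antibody) with its input, both amplified for 8 cycles by whole-genome amplification, and an H3K36me3 ChIP (15 microlitres of antibody) with its input, both unamplified. Mark and amplification cannot be told apart in this design. No spread between replicates could be measured, and forebrain at this stage mixes progenitors, young neurons and other cells, so a weak ratio in many cells and a strong one in few cells cannot be told apart. Tags used ranged from 2513019 in the amplified input to 23110768 in the unamplified input, with 7606197 for H3K4me3 and 10466543 for H3K36me3. Positions are in the build mm8. Gene annotation and sequence of that build were not used here, so members are named by position only and the tissue label was not set against marker genes. The labels give no separate samples within a group.

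Most members were single bins. Of the 3864, 2444 (63.3%) measured 5 kb, 806 measured 10 kb and 614 measured 15 kb. Among the 614 widest, 403 had all 3 of their bins above the rule and 211 had a middle bin below it, with a median ratio of 1.40 (interquartile range 1.07 to 1.75) in that bin. Regions of 5 kb were members more often than wider ones: 80.2% (78.8 to 81.6) of regions of 5 kb, 57.7% (55.1 to 60.3) of those of 10 kb and 56.4% (53.4 to 59.4) of those of 15 kb, the last 2 with overlapping intervals. The rule looks for H3K4me3 over the region and 5 kb on both sides, so it searches a longer stretch in wider regions. It thus favours a lower share among them. Intervals of shares are exact binomial 95% intervals, cover counting error only, and treat regions as if they were independent. Together the members covered 29.5 Mb, or 1.26% of the covered autosomes, and held 5.58% of the autosomal H3K36me3 tags.

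The members were weakly marked beside other H3K36me3 regions. Their median ratio was 2.71 (interquartile range 2.29 to 3.46), against 4.09 (2.90 to 5.94) in the 1667 compact regions that had H3K4me3 nearby and 3.64 (2.90 to 4.70) in the 1723 mid-length regions (20 to 75 kb) without it. Ratios under 2.5 were held by 1479 members (38.3%), against 14.2% of compact regions with H3K4me3 nearby and 11.4% of mid-length regions without it. Over all H3K36me3 regions, members included, the share was 19.2%. Ratios of at least 5 were held by 252 members (6.52%), against 37.0% and 19.97% in the same classes. Over all H3K36me3 regions that share was 27.3%. The order held at each width: members of 5, 10 and 15 kb had medians of 2.55, 3.001 and 3.04, and compact regions with H3K4me3 nearby had 3.18, 4.44 and 4.92. These classes differ by the rule itself, so no test is given. For scale, the median of all 468816 covered bins of 5 kb was 0.298, and 9.76% of them passed the H3K36me3 rule.

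**Figure D1:**
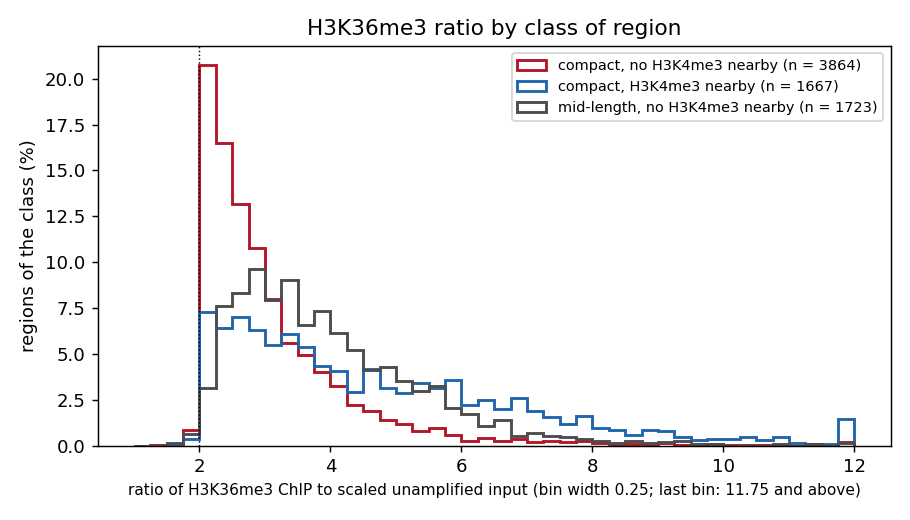
Distribution of the H3K36me3 ratio (x axis, ChIP over scaled unamplified input) as a percentage of each class of region (y axis), with the rule's minimum for a bin as a dotted line. The 3864 members pile up just above 2 (median 2.71), while the 1667 compact regions with H3K4me3 nearby spread to higher ratios (median 4.09).

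Tag numbers were modest. A member held a median of 97 H3K36me3 tags (interquartile range 54 to 180.2) and 76 tags of the unamplified input. Fewer than 40 H3K36me3 tags lay in 581 members (15.0%), and at least 100 lay in 1878 (48.6%). Over all H3K36me3 regions, many of them wider, these shares were 6.39% and 77.2%. The exact 95% interval of a member's own ratio lay above 1 in all 3864, as it did in all 10192 H3K36me3 regions. It lay above 2 in 1946 members (50.4%), against 7842 of all H3K36me3 regions (76.9%). In the remaining members it reached down to 2 or below. The rule chose the regions on these same counts, so the intervals describe counting error and carry no test. The same interval lay above 2 in 81.8% of compact regions with H3K4me3 nearby and in 93.7% of mid-length regions without it, which hold more tags.

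All 4 libraries could be compared over the members as multiples of their autosomal means. The H3K36me3 ChIP stood at 4.44 times its mean, its unamplified input at 1.38 times, the amplified input at 1.20 times and the H3K4me3 ChIP at 0.945 times. Both inputs were thus above their means, and H3K4me3 tags were below theirs, as the rule favours. In the members of 5 kb the H3K36me3 ChIP peaked at 4.34 times its mean in the central kb. It stood at 1.96 and 1.97 times in the first kb outside the edges, and at 1.35 and 1.32 times 5 kb from the centre, next to 1.35 and 1.33 times in the unamplified input. The unamplified input was level across the same 25 kb, between 1.29 and 1.35 times its mean. H3K4me3 stood at 0.929 times its mean in the centre and at 1.21 and 1.23 times 10 kb from it, where the rule no longer bars an H3K4me3 region.

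**Figure D2:**
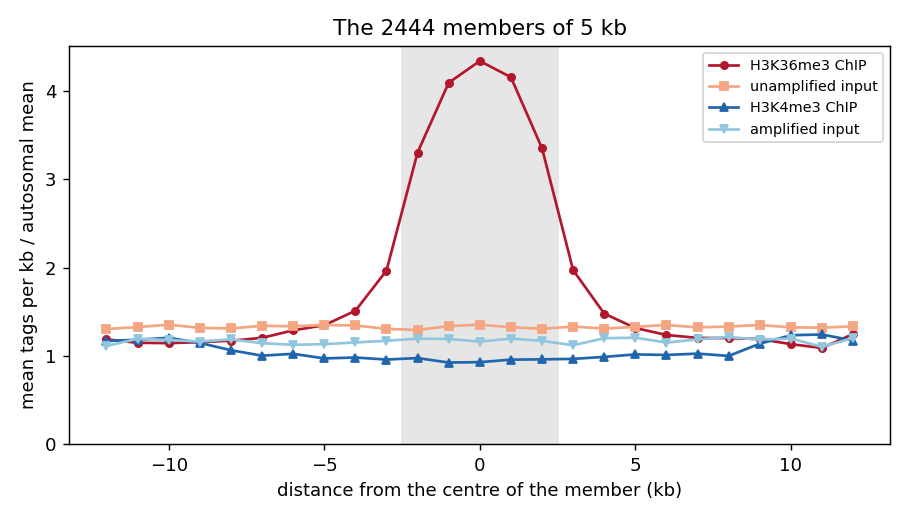
Mean tags per kb of the 4 libraries, divided by each library's autosomal mean (y axis), by distance from the centre of the 2444 members of 5 kb (x axis, kb). The shaded band is the member, where the H3K36me3 ChIP reaches 4.34 times its mean while the unamplified input stays between 1.29 and 1.35 times.

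Inside a member the H3K36me3 tags were somewhat more gathered than the input tags. Among 424 members of 5 kb with at least 100 tags of both the ChIP and its input, the fullest kb held a median of 35.6% of the ChIP tags (interquartile range 30.8 to 41.5), where even tags give 20%. The fullest kb of the input, at a similar number of tags (median 126 against 154.5), held 28.1% (25.5 to 31.8). More than 50% of the ChIP tags lay in a single kb in 49 of the 424, and more than 50% of the input tags in 2. In the 481 members of 10 kb with as many tags the medians were 22.9% and 17.5%, and in the 487 of 15 kb they were 17.6% and 13.1%. A single kb with more than 50% of the ChIP tags was found in 7 of the 481 and 1 of the 487. The rule counted tags per 5 kb and did not use their place within a bin. It did judge each bin of the wider members by itself and required uncalled bins beside every member. The gathering is thus not independent of the rule, and other classes were not compared. The 49 gathered members and the other 375 had similar ratios, 2.63 (2.29 to 3.75) against 2.56 (2.24 to 3.23).

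The most gathered of these lay on chromosome 10 (41885001 to 41890000). Its first kb (41885001 to 41886000) held 272 of its 338 H3K36me3 tags, or 80.5%, against 45 of 107 unamplified input tags, 2 H3K4me3 tags and 3 amplified input tags. The ratio of that kb was 12.8, and 47.1% of its H3K36me3 tags had a plus sign. On chromosome 7, the kb 15299001 to 15300000 held 94 of the 122 tags of its member (15295001 to 15300000), with 48 of 101 input tags. The kb 100413001 to 100414000, also on chromosome 7, held 78 of 106 tags, with 23 of 100 input tags. These 3 were singled out after their values were seen.

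The members with the most H3K36me3 tags over input were densely marked. In the 10 leading members the ChIP stood at 18.6 to 29.3 times its autosomal mean (median 25.4). Their unamplified input was also high, at 2.09 to 3.97 times (median 3.33), and their amplified input ranged from 0.675 to 2.38 times. Their H3K4me3 tags stood at 0.417 to 1.18 times the mean, below the amplified input of the same member in all 10.

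The leading member lay on chromosome 11 (69550001 to 69565000). It held 1720 H3K36me3 tags against 304 unamplified input tags, 55 H3K4me3 tags and 35 amplified input tags, an H3K36me3 ratio of 12.5 without the added tag (exact 95% interval 11.05 to 14.2). Its nearest H3K4me3 region (69573001 to 69576000) lay 8 kb away, just beyond the 5 kb limit of the rule. In the 10 kb on its lower side the H3K36me3 ratio was 0.593, and on its higher side, towards that H3K4me3 region, it was 1.17.

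The second in rank, also on chromosome 11 (117165001 to 117180000), held 1651 H3K36me3 tags against 464 of the unamplified input, with 33 H3K4me3 tags against 20 of the amplified input. Its ratio was 7.85 (7.08 to 8.73). Its nearest H3K4me3 region (117148001 to 117150000) lay 15 kb away, and a compact H3K36me3 region (117150001 to 117155000) began at the end of that H3K4me3 region.

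The third, on chromosome 12 (108360001 to 108370000), had the highest density of the 10, at 29.3 times the autosomal mean. It held 1287 H3K36me3 tags against 267 and 27 H3K4me3 tags against 14, a ratio of 10.6 (9.32 to 12.2). Its nearest H3K4me3 region lay 79 kb away and its nearest H3K36me3 region, another member, 20 kb away. The fifth, on chromosome 9 (114355001 to 114365000), held 1173 H3K36me3 tags against 201 and 29 H3K4me3 tags against 17, a ratio of 12.9 (11.1 to 15.04), with H3K4me3 at 45 kb. These distances fell on either side of the members' median of 59 kb.

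Of the other 6, 3 lay on chromosomes 8 and 10. The seventh in rank, on chromosome 10 (80475001 to 80490000), held 1258 H3K36me3 tags against 495 and 36 H3K4me3 tags against 34, a ratio of 5.61 (5.05 to 6.24), with H3K4me3 at 11 kb. It had sharp edges, with ratios of 0.123 and 0.180 in the 10 kb on its lower and higher side. The eighth, on chromosome 8 (73840001 to 73850000), held 1154 H3K36me3 tags against 339 and 13 H3K4me3 tags against 7, a ratio of 7.51 (6.65 to 8.51), with H3K4me3 at 12 kb. Also on chromosome 8, the sixth (87020001 to 87035000) held 1283 H3K36me3 tags against 513 and 36 H3K4me3 tags against 37, a ratio of 5.52 (4.98 to 6.13), with H3K4me3 at 25 kb. Its flanks were uneven, at 0.151 on the lower and 0.693 on the higher side.

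The last 3 had H3K4me3 at 22, 31 and 53 kb. The fourth in rank, on chromosome 6 (83155001 to 83170000), held 1305 H3K36me3 tags against 449 and 32 H3K4me3 tags against 29, a ratio of 6.42 (5.76 to 7.16). H3K36me3 ran on at 1.56 beyond its lower edge, the side of the H3K4me3 region, and stood at 0.2503 beyond the higher one. The ninth, on chromosome 11 (116355001 to 116365000), held 1136 H3K36me3 tags against 334 and 23 H3K4me3 tags against 20, a ratio of 7.51 (6.64 to 8.51). The tenth, on chromosome 17 (26915001 to 26930000), held 1226 H3K36me3 tags against 573 and 28 H3K4me3 tags against 18, a ratio of 4.72 (4.27 to 5.22), and its unamplified input was the highest of the 10, at 3.97 times the mean.

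**Figure D3:**
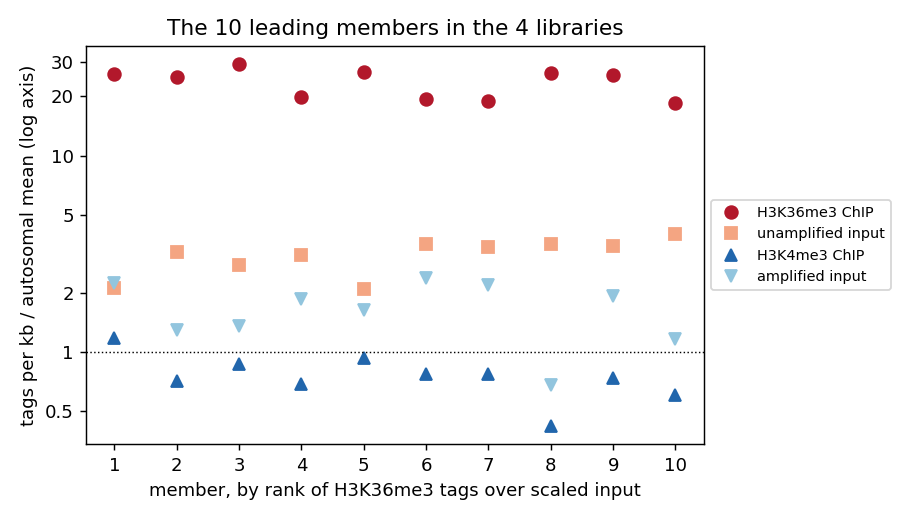
Tags per kb in the 10 leading members, divided by each library's autosomal mean (y axis, log scale), by rank (x axis); each point is 1 library. H3K36me3 lies between 18.6 and 29.3 times its mean in every one, and H3K4me3 lies between 0.417 and 1.18 times.

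The highest ratios rested in part on few input tags. The top ratio, 14.5 with the added tag, belonged to a member of chromosome 11 (62590001 to 62605000) with 904 H3K36me3 tags against 136 input tags and 54 H3K4me3 tags against 24. Next came 2 members of chromosome 17 on the same side of an H3K4me3 region (55549001 to 55550000). The farther one (55490001 to 55495000) held 85 tags against 11 (ratio 14.4), with 22 H3K4me3 tags against 3. The nearer one (55530001 to 55535000) held 71 against 9 (ratio 14.2), with 13 H3K4me3 tags against none. These are small counts: the unamplified input there stood at 0.229 and 0.187 times the autosomal mean. The fourth, on chromosome 7 (42385001 to 42390000), held 31 tags against 3 input tags. Its ratio of 13.6 became 1.47 against the amplified input, which had 5 tags there. The fifth was the chromosome 9 member described above, at 12.8.

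The amplified input gave a second reading of the same H3K36me3 tags. This library, which took no part in choosing H3K36me3 regions, put the ratio at 2 or more in 2945 members (76.2%, 74.8 to 77.6), with a median of 3.20. Over all 10192 H3K36me3 regions the share was 87.4% (86.7 to 88.0), with a median of 4.30. The share was 88.7% (87.1 to 90.2) in compact regions with H3K4me3 nearby and 92.7% (91.4 to 93.9) in mid-length regions without it. The members' share moved with the depth of the unamplified input, to which the rule ties the number of H3K36me3 tags. Among 522 members with under 5 input tags per kb it was 58.6% (54.3 to 62.9), among 1154 with 5 to 10 it was 62.0% (59.2 to 64.9), among 1431 with 10 to 20 it was 82.7% (80.6 to 84.6), and among 757 with 20 or more it was 97.8% (96.4 to 98.7). The amplified input held a median of 8 tags per member and none in 78 members, so single values against it are imprecise. From the shallowest to the deepest group the median H3K36me3 density rose from 5.5 to 32.6 tags per kb, and the amplified input from 0.6 to 1.6. The rule itself favours the rise in H3K36me3 tags. The part of input depth in these shares was not tested beyond that.

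The median ratio around the members was raised over that of all covered bins. In the 5 kb beside them the median ratio was 1.10 (interquartile range 0.701 to 1.53), and from 5 to 10 kb it was 0.861. The rule keeps both windows below a called bin, but it set no limit farther out. From 10 to 15 kb the median was 0.876, against 0.372 beside compact regions with H3K4me3 nearby and 0.769 beside mid-length regions without it. It was 0.684 from 45 to 50 kb and 0.499 from 95 to 100 kb, still above the 0.298 of all covered bins. Beside compact regions with H3K4me3 nearby it was already 0.334 from 5 to 10 kb and stayed between that and 0.482 out to 100 kb. Called bins were also frequent around the members: 19.6% of windows from 20 to 25 kb away passed the rule, against 9.76% of all covered bins. They were more frequent still beside the other classes, at 21.8% beside compact regions with H3K4me3 nearby and 24.2% beside mid-length regions without it, so the members' higher median there did not go with more called bins. Ratios of summed tags gave another order farther out. From 10 to 15 kb they were 1.20 beside members, 1.08 beside compact regions with H3K4me3 nearby and 1.14 beside mid-length regions without it. From 45 to 50 kb they were 1.42, 1.69 and 1.45. Windows of neighbouring members overlap, and these values were not tested.

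**Figure D4:**
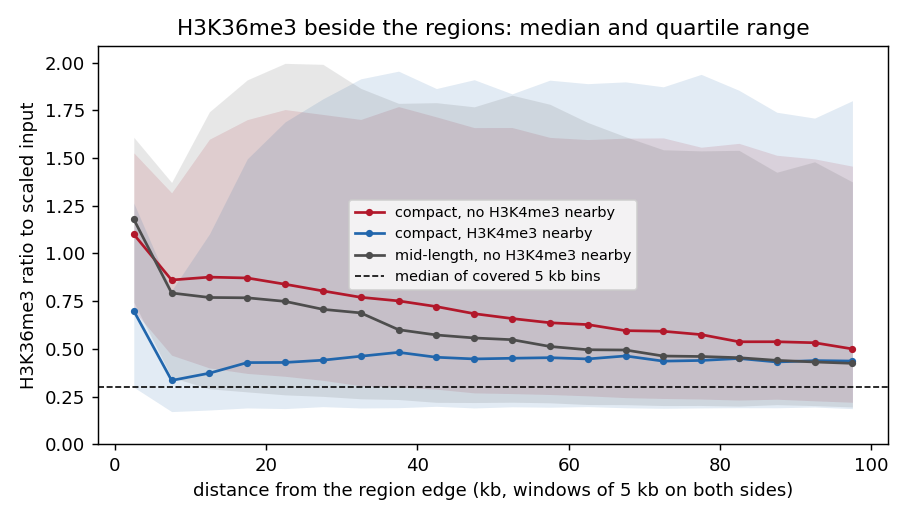
H3K36me3 ratio in windows of 5 kb (y axis, median as points and interquartile range as bands) by distance from the region edge (x axis, kb), for the members, compact regions with H3K4me3 nearby and mid-length regions without it. The members' median declines slowly from 1.10 to 0.499, while beside compact regions with H3K4me3 it is already 0.334 from 5 to 10 kb; the dashed line marks 0.298, the median of all covered bins.

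Members had another H3K36me3 region close by about as often as H3K36me3 regions of all classes. Such a region lay within 25 kb of 2429 members (62.9%, 61.3 to 64.4) and at 10 kb, the shortest distance the merging allows, of 1160 (30.0%). The share within 25 kb was 59.0% (56.6 to 61.3) in compact regions with H3K4me3 nearby, 69.0% (66.8 to 71.2) in mid-length regions without it and 61.6% over all H3K36me3 regions. At 10 kb the share over all H3K36me3 regions was 29.0%. In the 1160 gaps of 10 kb the median ratio was 1.29 (interquartile range 0.993 to 1.55), below the rule and above the genome's median. For the 2429 members with a neighbour within 25 kb, that neighbour was itself a member in 1300 cases (53.5%, 51.5 to 55.5), while members made up 37.9% of all regions. It was a mid-length region without H3K4me3 in 483 cases (19.9%, against 16.9% of all regions), a mid-length region with H3K4me3 in 303 (12.5%, against 24.6%) and a compact region with H3K4me3 in 275 (11.3%, against 16.4%). When H3K36me3 regions at most 25 kb apart were linked into chains, 1067 of the 2429 chained members (43.9%, 41.9 to 45.9) shared a chain with a region that had H3K4me3 nearby. Among chained mid-length regions without H3K4me3 nearby the share was higher, at 640 of 1189 (53.8%, 50.9 to 56.7). Chains of members alone held 801 of the 2429 (33.0%), and no matching share was computed for other classes.

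No other H3K36me3 region lay within 100 kb of 432 members (11.2%, 10.2 to 12.2), next to 11.5% of all H3K36me3 regions. These lone members had a median of 73.5 H3K36me3 tags, against 98 in members with a neighbour within 25 kb, and 26.6% of them held fewer than 40 tags, against 13.5%. Their ratios were close, at a median of 2.67 (2.24 to 3.26) against 2.76 (2.32 to 3.51). Their nearest H3K4me3 region lay at a median of 157.5 kb, against 49 kb. The most distant member, on chromosome 15 (18955001 to 18960000), lay 5855 kb from any other H3K36me3 region and 5836 kb from any H3K4me3 region, and held 32 H3K36me3 tags against 25 input tags (ratio 2.83, 1.62 to 4.97), with 17 H3K4me3 tags against 4. Another on chromosome 6 (77410001 to 77415000), 4200 kb from the next, held 21 tags against 19 with 19 H3K4me3 tags against 4, and that on chromosome 14 (88750001 to 88755000), 2370 kb away, held 21 against 14 with 1 H3K4me3 tag against none. All 3 lay close to the minimum of 20 tags.

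The other 2 of the 5 most distant members held more tags. The member on chromosome 2 (97430001 to 97435000), 3200 kb from the next, held 78 H3K36me3 tags against 44 (ratio 3.91, 2.67 to 5.80), with 14 H3K4me3 tags against 6. That on chromosome 12 (96175001 to 96180000), 2445 kb from the next, held 210 against 66, a ratio of 7.02 (5.30 to 9.41), with 19 H3K4me3 tags and 4 amplified input tags. An H3K4me3 region (96088001 to 96093000) lay 82 kb from it.

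The nearest H3K4me3 region was usually well outside the limit. Its median distance was 59 kb (interquartile range 25 to 129 kb), against 33 kb (14 to 78.5 kb) for mid-length regions without H3K4me3 nearby. Of the members 363 (9.39%) had it within 10 kb, 440 (11.4%) from 10 to 20 kb, 944 (24.4%) from 20 to 50 kb, 864 (22.4%) from 50 to 100 kb and 1253 (32.4%) beyond 100 kb. The corresponding shares of mid-length regions were 18.2%, 16.9%, 26.7%, 19.2% and 18.98%. At the limit of the rule, the members on chromosome 1 (24640001 to 24655000) and chromosome 2 (21130001 to 21140000) had H3K4me3 at 6 kb and ratios of 3.14 and 3.10. Regions of chromosome 1 (52070001 to 52085000 and 53225001 to 53235000) had it at 5 kb, which left them out, with ratios of 2.15 and 4.69. At the lower end of the ratio, members could fall below 2 because a middle bin counts in the whole. The lowest were on chromosome 3 (96100001 to 96115000, 95 tags against 140, ratio 1.49) and chromosome 8 (76215001 to 76230000, 104 against 144, ratio 1.59).

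**Figure D5:**
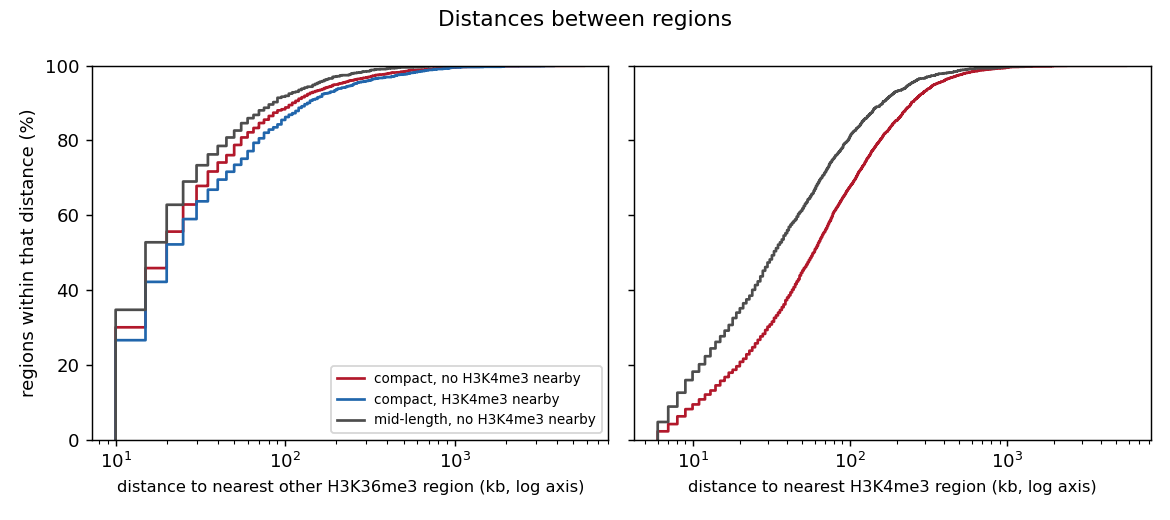
Cumulative percentage of regions (y axis) by distance to the nearest other H3K36me3 region (left, kb on a log axis) and to the nearest H3K4me3 region (right, same kind of axis). For the members the median distance is 20 kb on the left and 59 kb on the right, and the right panel leaves out the class defined by H3K4me3 nearby.

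H3K36me3 leaned towards the side of the nearest H3K4me3 region at middle distances. For the 864 members with H3K4me3 at 50 to 100 kb, the stretch from 10 to 30 kb beyond the edge had a median ratio of 1.19 (interquartile range 0.667 to 1.83) on the side towards it and 0.963 (0.446 to 1.596) on the other. The side towards H3K4me3 was the higher one in 501 of 864 (58.0%, 54.6 to 61.3). From 30 to 50 kb the medians were 1.27 and 0.855, and the share was 61.1% (57.8 to 64.4). In the 5 kb next to the member the sides were alike, at 1.14 and 1.12, with the side towards H3K4me3 higher in 49.8% (46.4 to 53.2). For the 1253 members with H3K4me3 beyond 100 kb the medians from 10 to 30 kb were 0.953 and 0.871, and the share was 53.1% (50.3 to 55.9). Mid-length regions without H3K4me3 nearby with H3K4me3 at 50 to 100 kb and beyond 100 kb had shares of 60.1% (54.6 to 65.4) and 59.0% (53.5 to 64.4) over the same stretch from 10 to 30 kb. From 30 to 50 kb their shares were 65.9% (60.5 to 70.96) and 65.7% (60.3 to 70.9), against 61.1% and 53.2% in members, and the difference was not tested. The side away from the nearest H3K4me3 region holds none within the same distance by construction, and no test over members was made.

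Some members held H3K4me3 tags that stayed below the rule. A weak bin, defined as 1 kb outside any H3K4me3 region with at least 10 H3K4me3 tags and a ratio of at least 2, lay inside or within 5 kb of 485 members (12.6%, 11.5 to 13.6) and inside 128 (3.31%, 2.77 to 3.93). Of all covered autosomal 1 kb bins outside H3K4me3 regions 0.767% were weak, or 7.67 per Mb. Inside members there were 4.85 per Mb, and with the 5 kb on both sides 10.1 per Mb. In mid-length regions without H3K4me3 nearby these densities were 4.08 and 6.74 per Mb. The densities with flanks are not alike, because flanks made up more of the members' stretch. Of 68.1 Mb with flanks 29.5 Mb lay inside members, with 143 of the 690 weak bins. Of 77.5 Mb with flanks 60.3 Mb lay inside mid-length regions, with 246 of the 522 weak bins. A weak bin lay inside or within 5 kb of 376 of the 1723 mid-length regions (21.8%, 19.9 to 23.8). The rule bars stronger bins from the same stretches, so these values are descriptions. Members with a weak bin had a median H3K36me3 ratio of 3.07 (2.48 to 4.11), against 2.67 (2.27 to 3.35) in the 3379 without one. They were also wider (mean 8.55 against 7.501 kb) and had more unamplified input (median 14.1 against 11 tags per kb), whose part was not tested.

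Some weak bins came close to the rule. The member with the most H3K4me3 tags, on chromosome 3 (108330001 to 108340000), held 102 H3K4me3 tags against 24 amplified input tags, beside 507 H3K36me3 tags against 268. Its fullest kb for H3K4me3 (108338001 to 108339000) had 49 tags against 4, a ratio of 3.81 where 4 was needed. On chromosome 7 (100410001 to 100415000) a member of 5 kb held 93 H3K4me3 tags against 10, with 43 against 6 in 1 kb (100411001 to 100412000, ratio 2.30), beside 106 H3K36me3 tags against 100. That is the member whose H3K36me3 tags were gathered in another kb, 100413001 to 100414000, with 3 H3K4me3 tags there. The member of chromosome 4 (58035001 to 58050000) held 100 H3K4me3 tags against 33 and 688 H3K36me3 tags against 204. Its fullest kb for H3K4me3 had 30 tags against 4, a ratio of 2.36. The members of chromosome 17 (25810001 to 25825000) and chromosome 2 (106665001 to 106680000) held 79 against 21 and 75 against 18, beside 320 H3K36me3 tags against 349 and 235 against 204. The chromosome 2 member had no weak bin, and its fullest kb held 10 H3K4me3 tags against 2, a ratio of 1.56. In the chromosome 17 member the kb 25817001 to 25818000 had 19 H3K4me3 tags against 1, a ratio of 4.97 that passed the minimum of 4, and missed the rule only on the minimum of 20 tags. Over all members the H3K4me3 tags pooled to a ratio of 0.781, next to 0.776 in mid-length regions without H3K4me3 nearby.

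No member had an uneven sign of tags by the test used. It entered the rule only through the 75 bp shift, and both the H3K36me3 ChIP and its input held at most 1 tag per position and sign as deposited. A two-sided exact binomial test of plus against minus tags, adjusted by the Benjamini-Hochberg method over all 10192 H3K36me3 regions, called 0 of the 3864 members and 0% of all regions. At an unadjusted p under 0.05 it called 160 members (4.14%) and 509 regions (4.99%), and the lowest adjusted p was 0.252. The unamplified input gave 0 and, unadjusted, 149 members. The test thus did not tell the ChIP from its input. With a median of 97 H3K36me3 tags per member, a small imbalance could go uncalled. The share of plus signs in a member had a median of 50% and lay between 40% and 59.8% for the middle 90% of members.

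Members occurred on all 19 autosomes, at 1.65 per covered Mb (exact Poisson 95% interval 1.597 to 1.70). Chromosome 10 was densest at 2.07 per Mb (1.83 to 2.34) and chromosome 3 sparsest at 1.21 (1.04 to 1.40). These are the extremes of 19 autosomes, and their intervals, which do not overlap, treat members as independent. H3K36me3 regions of all classes stood at 4.61 per covered Mb on chromosome 10 and 3.35 on chromosome 3, against 4.35 over all autosomes. Members made up 45.0% and 36.2% of them, against 37.9%. The share of H3K36me3 regions that were members was lowest on chromosome 11, at 30.9% (27.5 to 34.4), and highest on chromosome 18, at 45.7% (40.4 to 51.1). H3K4me3 regions were densest on chromosome 11, at 5.62 per covered Mb against 2.52 on chromosome 18, and the part of that density in the shares was not tested. The median ratio of members hardly varied between chromosomes, from 2.64 on chromosome 15 to 2.83 on chromosome 17.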

How the data were processed

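The authors deposited 1 list of placed tags per library (other unit: each line a chromosome, position and sign, per the file contents), with positions in mm8, per the submitters' processing notes, and only tags with a single placement, going by the file names. The aligner is not given in the sources used here. Repeats were kept in the H3K4me3 input only; they were collapsed to 1 tag per place and sign, which took out 27.5% of 3464484. Tags were shifted by 75 bp by sign and counted on chromosomes 1 to 19. Inputs were scaled by library totals (3.027 for H3K4me3, 0.453 for H3K36me3, 4.165 for the amplified input under H3K36me3). A covered bin has at least 1 unamplified input tag. Python 3.11.15, numpy 2.4.6, scipy 1.17.1 and pandas 2.3.3 were used, and the region rule and sign test were tested on simulated data. Members and lists were chosen with earlier results of these data known. Named members were the 10 with most H3K36me3 tags over scaled input, the 5 with the highest ratio, the 5 farthest from other H3K36me3 regions, the 5 with most H3K4me3 tags, the 2 with the lowest ratio and 2 regions just outside the H3K4me3 distance; the 2 just inside it were added later. Tags are not independent molecules, and intervals cover counting error only. Alternatives varied thresholds, merging, shift, grid, input and H3K4me3 distance.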

Additional observations from a re-analysis of the deposited data

Results flagged for a closer look

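The X chromosome lay outside the rule, and its tags entered the comparisons above only through the library totals that scaled the inputs. The same rule applied to it gave 174 compact H3K36me3 regions without H3K4me3 nearby among 387 H3K36me3 regions (45.0%, 39.9 to 50.1). It was looked at because a signal over the control library appeared in tags left out of the regions. They held 13342 H3K36me3 tags against 8728 tags of the unamplified input, which pools to a ratio of 3.37. The median over the regions was 2.89. Their density was 1.17 per covered Mb (exact Poisson 95% interval 0.999 to 1.35), against 1.65 on the autosomes, at 3.89 unamplified input tags per covered kb of the chromosome against 9.61. The part of the lower depth on X in this density was not tested.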

How the results depend on the processing

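The number of members was 6355 with only adjacent bins merged, 6197 with the input scaled on background bins and 5999 against the amplified input; under the other 9 settings it stayed within 1.5 times of 3864. With the input scaled on background bins, 1032 of the 3864 members (26.7%) overlapped a member, though all 3864 overlapped an H3K36me3 region; with a ratio minimum of 3, 1717 (44.4%) did. Against the amplified input 2058 (53.3%) overlapped a member and 3129 (80.98%) an H3K36me3 region, and with bins starting 2.5 kb later 2620 (67.8%) overlapped a member. The share with an H3K36me3 neighbour within 25 kb was 78.5% with only adjacent bins merged, 46.9% with gaps of 2 bins merged and 59.1% at a ratio minimum of 3. The share at a ratio of at least 2 against the amplified input was 62.8% at a minimum of 1.5, 89.8% at 3, 83.1% at 40 tags and 25.03% with background scaling. The share with a weak H3K4me3 bin was 14.5% with bins starting 2.5 kb later, 13.8% with input repeats kept and 10.7% at an H3K4me3 minimum of 2. Where not set by the rule's own construction, the cause was not tested. Uneven signs were called in at most 2 members under any setting. No paired analysis was possible because each group held 1 library.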

Other observations

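Members were spread unevenly along chromosomes. Of 2411 covered megabase windows 1409 held at least 1 member, 427 of them exactly 1. The fullest window, on chromosome 13 (28000001 to 29000000), held 13 members among 15 H3K36me3 regions, with 2 H3K4me3 regions and a median member ratio of 2.64. A window of chromosome 18 (25000001 to 26000000) held 12 among 13. A window of chromosome 7 (115000001 to 116000000) held 11 members among 14 H3K36me3 regions, also with 2 H3K4me3 regions, and a window of chromosome 10 (42000001 to 43000000) held 11 among 15, with 6. A window of chromosome 13 (67000001 to 68000000) held 10 members among 15 regions beside 13 H3K4me3 regions, with a median ratio of 3.43. These windows were singled out after their values were seen.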
